A study of Mus musculus with 2 samples.

Results

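The replication-dependent histone genes are 59 of the 34400 genes listed in either count table. They were taken by name: the numbered H2ac, H2bc, H3c and H4c genes, which encode the core histones H2A, H2B, H3 and H4, and H1f1 to H1f5, which encode linker histones. The tables hold 10x 3' UMI counts (unique molecules captured near the 3' end of a transcript) of cells from mouse colon tumours grown from CT26 colorectal cancer cells. The tested library came from mice given an antibody against SLC7A11, the cystine and glutamate antiporter, and its counterpart came from mice given control IgG. Each agent was given at 10 mg/kg, 1 dose per 2 days, once tumours measured 50 to 100 mm³. The design text names both an injection at the caecum and growth under the skin, and it does not state how many animals each library pooled. Each treatment has 1 library, so library and treatment cannot be told apart, no difference below has a replicate check, and every interval covers counting error only.

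All nucleosomes are built from H2A, H2B, H3 and H4, and H1 binds the linker DNA between them. The replication-dependent genes lie in clusters of many near-identical copies, are transcribed mainly in S phase, and supply histones for newly made DNA. Their mRNAs characteristically end in a short stem-loop bound by SLBP in place of a poly(A) tail, although polyadenylated forms of some members are known. A 3' library primed on poly(A) therefore counts only those molecules that carry a tail or an A-rich stretch, and its counts are not levels of the whole histone mRNA pool.

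By GENCODE M21 on GRCm38, the genome build named for the files, 50 members lie on chromosome 13 and 9 on chromosome 3. Of the 58 members with an annotated coding transcript, 39 hold a 16-base match to the histone stem-loop after the stop codon, in the form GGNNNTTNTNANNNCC. The matches below belong to members with many counts and to the H2B partner of one of them, with the paired bases in capitals and the loop in lower case.
H2ac8: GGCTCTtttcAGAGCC
H2bc8: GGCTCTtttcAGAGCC
H2ac20: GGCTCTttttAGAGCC
H3c3: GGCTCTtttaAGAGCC
H4c4: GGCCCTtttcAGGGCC
The stem of H2ac8 has the same letters as that of H2bc8, its neighbour on the opposite strand. Every other H1, H2A, H2B and H3 match has these stem letters too, and only H4 stems differ. The annotated transcript runs on past the loop for 151 bases in H2ac8, 155 in H2bc8, 57 in H2ac20, 74 in H3c3 and 770 in H4c4. In 21 members it runs on for at least 50 bases, and these held 65.3% of the member UMIs in the antibody library and 39.6% in the control library. The 18 members whose transcript ends sooner after the loop held 5.46% and 3.34%, in the same order of libraries. The 19 with no match held 29.2% in the antibody library and 57.0% in the control library. H1f5, the linker histone with the most counts, is among them. In some of them the annotated transcript ends with the coding sequence, as in H2ac13 (393 bases), H3c10 (411) and H4c12 (312). No bases after the stop codon could be searched there, so a missing match does not show that the mRNA lacks a stem-loop.

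Several H2A genes start within 500 bases of an H2B gene on the other strand, so that both share 1 stretch of promoter. The bases between the starts of H2ac8 and H2bc8 (RefSeq, GRCm38.p6, chr13:23571221-23571395, minus strand) and of H2ac20 and H2bc21 (chr3:96220881-96221118, minus strand) are shown because both pairs split by library as described below. Capitals mark, on either strand, the letters CCAAT, the TATA box letters TATAAA and the octamer of H2B promoters, ATTTGCAT.
H2ac8 with H2bc8: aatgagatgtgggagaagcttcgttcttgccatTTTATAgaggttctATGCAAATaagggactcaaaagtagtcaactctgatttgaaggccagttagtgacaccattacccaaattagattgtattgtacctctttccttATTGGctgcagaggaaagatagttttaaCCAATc
H2ac20 with H2bc21: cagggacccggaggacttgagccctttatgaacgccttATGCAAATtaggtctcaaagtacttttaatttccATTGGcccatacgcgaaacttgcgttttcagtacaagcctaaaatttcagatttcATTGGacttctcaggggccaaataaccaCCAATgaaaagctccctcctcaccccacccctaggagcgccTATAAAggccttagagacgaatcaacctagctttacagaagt
The first stretch holds 2 CCAAT letters, 1 TATAAA and 1 octamer, and the second holds 3, 1 and 1. Over 300-base promoter windows of 52 members (53 windows), 86.8% held CCAAT, against 37.4% of all 32851 windows. TATAAA was in 58.5% of the member windows, against 13.6% of all, and the octamer in 20.8%, against 1.74%. All 16 H2A windows and all 13 H2B windows held CCAAT, so the presence of these letters did not separate these 2 families.

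After filtering and doublet removal, 10897 antibody and 12326 control cells remained, with 118685117 and 103427920 UMIs and median depths of 7201 and 7052 UMIs per cell. The libraries shared 39 barcodes. Ptprc, the leukocyte marker CD45, was found in 28.0% of antibody and 9.53% of control cells, so values over all cells also differ in cell makeup. The labels call the cells goblet cells, but goblet markers were nearly absent (Muc2 had 4 UMIs in each library, Tff3 had 2 in the antibody library and 0 in the control library). A gate on keratins and Epcam held only 2 antibody and 18 control cells, so most tumour cells had to be approached another way. Cells in no marker gate with at least 5000 UMIs, 0 UMIs of the leukocyte gene Ptprc and 0 of Y-linked genes are called Ptprc-negative below (3661 antibody and 5271 control cells), and Krt18, a keratin of simple epithelia, is among their 3 leading genes, at 2.10 times its level in the other cells. Since no marker defines this group, it is called by its rule and not as tumour cells. Cells of the collagen gate (1431 and 2703 cells) carried Y-linked UMIs in 9.15% and 2.63% of cells, against 40.7% and 34.3% of macrophage-like cells, and are therefore called collagen-gated, not fibroblasts. The other compared groups were macrophage-like (1424 and 958 cells), T-like (733 and 174), CD8 T-like (500 and 89) and neutrophil-like cells (221 and 143).

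The 59 genes together had 92889 UMIs in the antibody library and 23644 in the control library. Scaled to the total UMIs of a library or cell group as CPM, this was 783 CPM (95% Poisson interval 778 to 788) against 229 (226 to 232), a 3.42-fold difference. The families differed widely in their part of it. H2A genes summed to 15801 UMIs in the antibody library, against 199 in the control library (69.2-fold), and H3 genes to 9635 against 108 (77.7-fold). H2B genes summed to 14104 against 5919 UMIs (2.08-fold) and H4 genes to 14255 against 6590 (1.89-fold). H1 genes lay between, with 39094 against 10828 UMIs (3.15-fold). H2A and H3 thus made up 27.4% of the histone UMIs in the antibody library and 1.30% in the control library.

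Of the 59 members, 55 had at least 20 UMIs over both libraries, and 41 of these were at least 2-fold higher in the antibody library. Of all 20157 genes with as many UMIs, 13.4% were. None was 2-fold lower, against 4.36% of all genes. At least 16-fold higher were 20 members (19 with genes at 0 control UMIs set against a floor of 3 counts over the control library), against 0.645% of all genes. The median log2 ratio was 1.88 for the members and -0.12 for all genes. In 23 of the 55 the control library alone had fewer than 20 UMIs, so that these passed only with the antibody counts, which favours a higher ratio. All but H2bc12 and H4c11 of them were at least 2-fold higher. Of the 32 with at least 20 control UMIs, 20 were at least 2-fold higher and 3 at least 16-fold higher. Copies within a family share sequence, and reads from a 90-base window found in another member cannot be placed. The median share of such windows was 71.6% in H2A, 40.8% in H3, 34.4% in H2B, 20.1% in H4 and 1.06% in H1, so values of single core histone copies are uncertain. How reads with several matches were counted is not given in the sources used here.

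**Figure D1:**
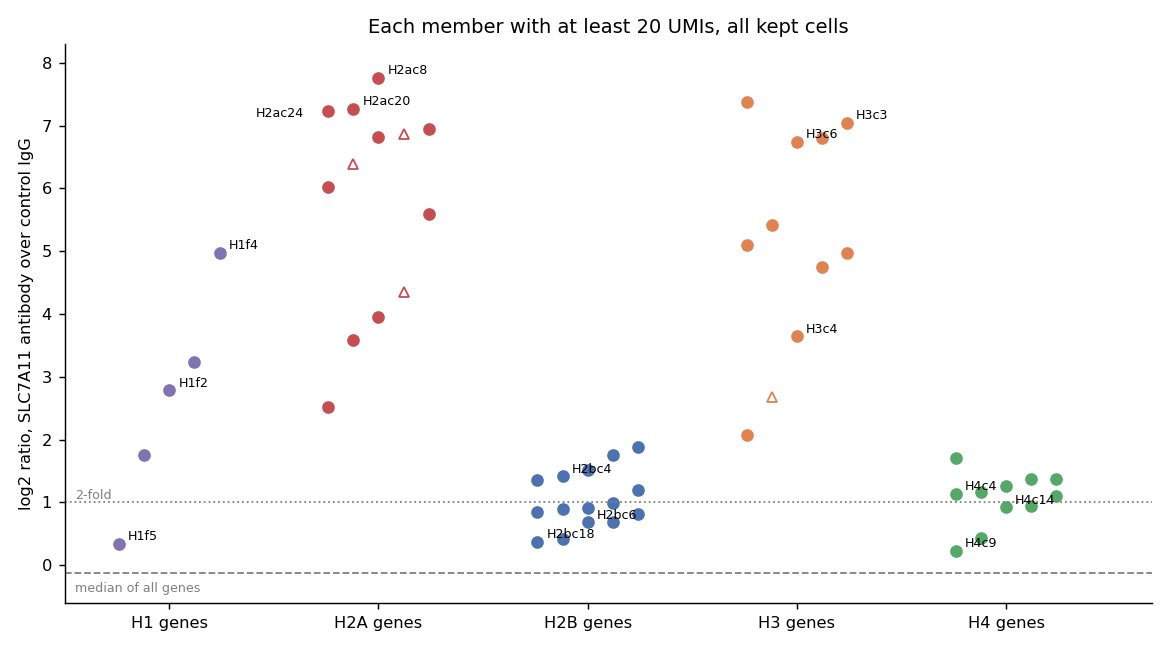
Log2 ratio of UMIs, SLC7A11 antibody over control IgG, in all kept cells for the 55 members with at least 20 UMIs (vertical axis), by family. Filled points are ratios, open triangles are lower bounds for genes at 0 UMIs in the control library, the dotted line is 2-fold and the dashed line the median of all genes (-0.12). H2A and H3 genes sit at 2.07 or above, and H2B and H4 genes at 1.88 or below. Of the H2A and H3 genes, only H2ac20, H2ac6, H3c3 and H3c4 had 20 UMIs in the control library alone.

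Among the linker histones, H1f5 had the most counts, 12847 UMIs in the antibody library and 8829 in the control library (log2 ratio 0.34, interval 0.30 to 0.38). It was found in 22.7% of antibody and 18.2% of control cells. H1f4 had 12075 against 335 UMIs (4.97, 4.82 to 5.13) and was found in 34.9% against 2.55% of cells. H1f2 had 10214 against 1288 UMIs (2.79, 2.71 to 2.87) and was found in 35.5% against 8.88% of cells. H1f2, H1f3 and H1f4 summed to a log2 ratio of 3.53, a grouping chosen after their values were seen. The order of the linker histones therefore differed between the libraries: H1f5 held most H1 UMIs in the control library, whereas H1f5, H1f4 and H1f2 were close together in the antibody library.

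Among H2A genes, H2ac20 had 5763 UMIs in the antibody library and 32 in the control library (log2 ratio 7.27, interval 6.80 to 7.84). H2ac8 had 3861 against 15 UMIs (7.76, 7.09 to 8.65), and H2ac24 had 1810 against 10 (7.23, 6.42 to 8.36). H2ac20 was found in 18.1% of antibody cells and 0.252% of control cells. In the control library 6 of the 17 H2A genes were at 0, such as H2ac15 with 400 antibody UMIs (at least 116-fold higher if it was counted there). The control count table listed 54 of the 59 members and the antibody table all 59, and a gene not listed was taken as 0. The lowest of the 13 H2A genes with at least 20 UMIs was H2ac6 (743 against 113 UMIs, 2.51). At least 16-fold higher were 10 of the 13, beside 0.645% of all genes. Only H2ac20 and H2ac6 had 20 UMIs in the control library alone. The others passed only with the antibody counts, which favours a higher ratio.

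H3 genes had ratios close to those of H2A genes. H3c3 had 6872 UMIs in the antibody library and 45 in the control library (log2 ratio 7.04, interval 6.63 to 7.51), followed by H3c6 with 798 against 6 (6.74, 5.73 to 8.31). H3c4 had 538 against 37 UMIs (3.65, 3.18 to 4.19). All 11 H3 genes were at least 2-fold higher, beside 13.4% of all genes, and the lowest was H3c15 (26 against 5 UMIs, 2.07). Only H3c3 and H3c4 had 20 UMIs in the control library alone, and the others passed only with the antibody counts.

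H2B and H4 genes were well counted in both libraries. H2bc4 had 7737 UMIs in the antibody library and 2526 in the control library (log2 ratio 1.42, interval 1.35 to 1.48), H2bc18 had 2342 against 1577 (0.37, 0.28 to 0.47) and H2bc6 had 1094 against 594 (0.68, 0.54 to 0.83). H4c4 had 9463 against 3747 UMIs (1.14, 1.08 to 1.19), H4c9 had 2855 against 2116 (0.23, 0.15 to 0.32) and H4c14 had 432 against 198 (0.93, 0.68 to 1.18). Of the 26 genes of both families 13 were at least 2-fold higher (13.4% of all genes) and none at least 16-fold higher (0.645%). The highest was H2bc11 (103 against 24 UMIs, 1.88). No H2B or H4 gene was at 0 in either library.

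Genes of 1 pair that share a promoter also differed in ratio. Of 11 H2A and H2B pairs with starts at most 500 bases apart, 9 had at least 20 UMIs for both genes, and the H2A gene had the higher ratio in 9 of 9. This tally is a description, since only 2 of the 9 H2A genes, H2ac20 and H2ac6, had 20 UMIs in the control library and the others passed only with the antibody counts. H2ac8 and H2bc8, whose shared 175 bases are printed above, had 3861 against 15 and 383 against 98 UMIs (log2 ratios 7.76 and 1.76). In H2ac20 and H2bc21 the H2A gene had 5763 against 32 UMIs and the H2B gene 232 against 109 (7.27 and 0.89). Where H2ac15 was at 0 in the control library, its partner H2bc15 had 315 antibody and 152 control UMIs. The gap was smallest, 1.10, for H2ac6 and H2bc4 and largest, 6.38, for H2ac20 and H2bc21. The H2A gene was also the higher in 8 of 8 such pairs in Ptprc-negative cells, 6 of 6 in collagen-gated and 2 of 2 in macrophage-like cells. Of these H2A genes, 2, 1 and 0 had 20 control UMIs in the same groups. In CD8 T-like cells 0 of the 11 pairs had at least 20 UMIs for both genes. All these groups come from the same 2 libraries and are no replicates of each other.

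**Figure D2:**
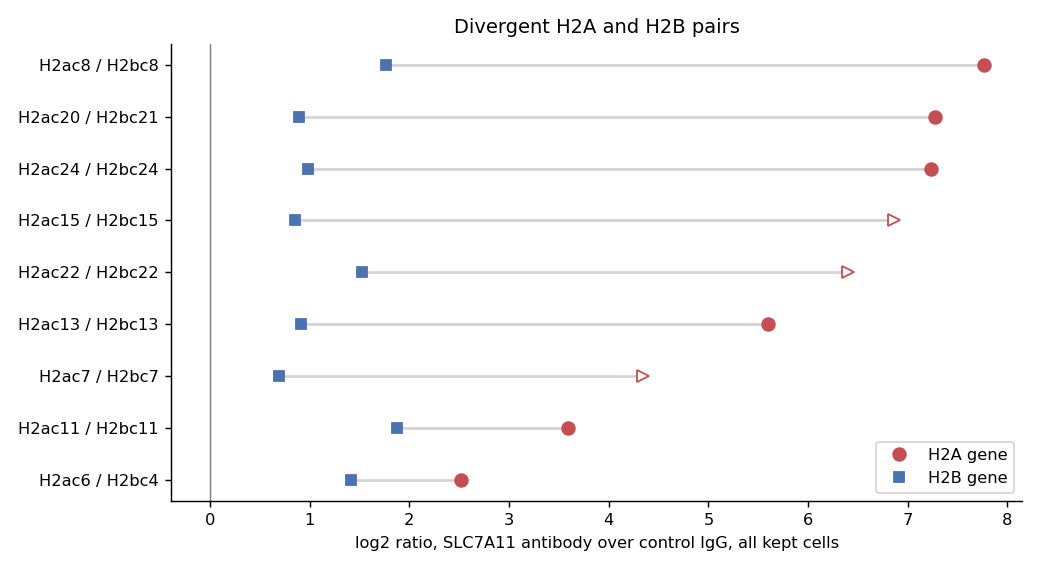
Log2 ratio, SLC7A11 antibody over control IgG, of the H2A gene (circle, or triangle for a lower bound where the control library had 0 UMIs) and the H2B gene (square) of 9 divergent pairs, all kept cells. Each H2A gene lies to the right of its H2B partner, by 1.10 to 6.38.

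In Ptprc-negative cells the members summed to 827 CPM in the antibody library, against 229 in the control library (log2 ratio 1.85, interval 1.83 to 1.88). Of 50 members with at least 20 UMIs, 41 were at least 2-fold higher (background 11.9%) and 20 at least 16-fold higher, or 18 with genes at 0 control UMIs set against 3 counts (background 0.723%). In 23 of the 50 the control cells alone had fewer than 20 UMIs. H2A and H3 genes together had 15050 against 193 UMIs (log2 ratio 6.25), and H2B and H4 genes 16389 against 7709 (1.06). H1f5 had 7531 against 5652 UMIs and H1f4 6930 against 198. H2bc4 had 4478 against 1394 UMIs, and H4c4 had 5543 against 2460. Markers of leukocytes and endothelium summed to 269 CPM in antibody and 161 in control Ptprc-negative cells, and their part in the result was not tested.

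Collagen-gated cells were close to these, with 807 against 240 CPM (log2 ratio 1.75). Of 43 members, 29 were at least 2-fold higher, beside a background of 12.4%, and 15 were at least 16-fold higher (14 with genes at 0 set against 3 counts), beside 0.634%. In 22 of the 43 the control cells alone had fewer than 20 UMIs, and of the other 21, 11 were at least 2-fold and 1 at least 16-fold higher. H3 genes had 1873 against 20 UMIs there and H4 genes 2543 against 1549.

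Macrophage-like cells differed less between the libraries, with 447 against 241 CPM in antibody and control cells (log2 ratio 0.89, interval 0.79 to 0.99). Of 28 members, 14 were at least 2-fold higher (background 10.1%) and 1, H4c14 with 13 against 11 UMIs, was at least 2-fold lower (background 4.68%). At least 16-fold higher were 7 (4 with genes at 0 set against 3 counts), beside a background of 0.534%. Without doublet removal 22 were at least 2-fold higher. In 20 of the 28 the control cells alone had fewer than 20 UMIs, and among them were all 11 H2A and H3 genes that passed. Of the other 8, only H1f2 and H1f3 were at least 2-fold higher and none 16-fold higher. None of the 12 countable H2B and H4 genes was at least 2-fold higher: H4 genes summed to 763 against 286 UMIs (0.16, -0.03 to 0.37). H1f5 had 508 against 330 UMIs, a log2 ratio of -0.63 (-0.83 to -0.42). Summed H2A and H3 genes nevertheless had 1036 against 11 UMIs (5.24, 4.46 to 6.31).

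T-like cells had the most histone CPM among the large groups, 1436 against 364 (log2 ratio 1.97), and their CD8 T-like part had 1593 against 499 (1.67, 1.41 to 1.95). Of 21 members in T-like cells, 17 were at least 2-fold higher, or 13 with genes at 0 control UMIs set against 3 counts (background 11.6%), and of 19 in CD8 T-like cells, 15 were (background 13.2%), or 10 with genes at 0 control UMIs set against 3 counts. None was 2-fold lower in either (backgrounds 8.96% and 7.96%). At least 16-fold higher were 6 in T-like and 4 in CD8 T-like cells, or 3 and 2 with genes at 0 set against 3 counts (backgrounds 0.56% and 0.62%). In 19 of the 21 and 17 of the 19 the control cells alone had fewer than 20 UMIs, and of the other 2 in each group 1 was at least 2-fold higher. The CD8 T-like control cells held only 118 histone UMIs, 65 of them of H1f5. H1f5 had 701 against 65 UMIs (0.51, 0.15 to 0.91), H1f4 426 against 1 (5.24, 3.34 to 11.13) and H4c4 346 against 20. H2A and H3 genes had 738 against 2 UMIs there, and H2B and H4 genes 657 against 42.

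Neutrophils do not divide, and the group was taken as one that should lack these mRNAs. Its G2/M genes summed to 2045 CPM in antibody and 4432 in control cells, against 3108 and 3340 in Ptprc-negative cells. The group therefore carried cycle RNA and cannot serve as one without it. Neutrophil-like cells had 504 against 164 histone CPM, from 152 and 37 UMIs in all. At median depths of 777 and 668 UMIs, 32.6% of antibody and 13.3% of control neutrophil-like cells had at least 1 histone UMI. The same shares were 93.6% and 65.1% in Ptprc-negative cells (median depths 15719 and 10872), 61.4% and 36.6% in macrophage-like cells. Of CD8 T-like cells, 67.0% and 37.1% had one. Of 3 members with at least 20 UMIs, 2 were at least 2-fold higher (background 12.4%) and none 16-fold higher (background 0.6%), and all 3 had fewer than 20 control UMIs. H2A and H3 genes again had 31 against 1 UMI. In neutrophil-like cells the histone counts can hold RNA from other cells, and that part was not tested.

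Depth set part of these shares. With every cell thinned to 2000 UMIs, a histone UMI was found in 56.0% of antibody and 27.9% of control Ptprc-negative cells, and in 38.3% and 26.1% of macrophage-like cells. In CD8 T-like cells it was 60.5% and 52.6%, with 115 antibody and 51 control cells left out as shallower. Only 17 antibody and 11 control neutrophil-like cells were deep enough.

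**Figure D3:**
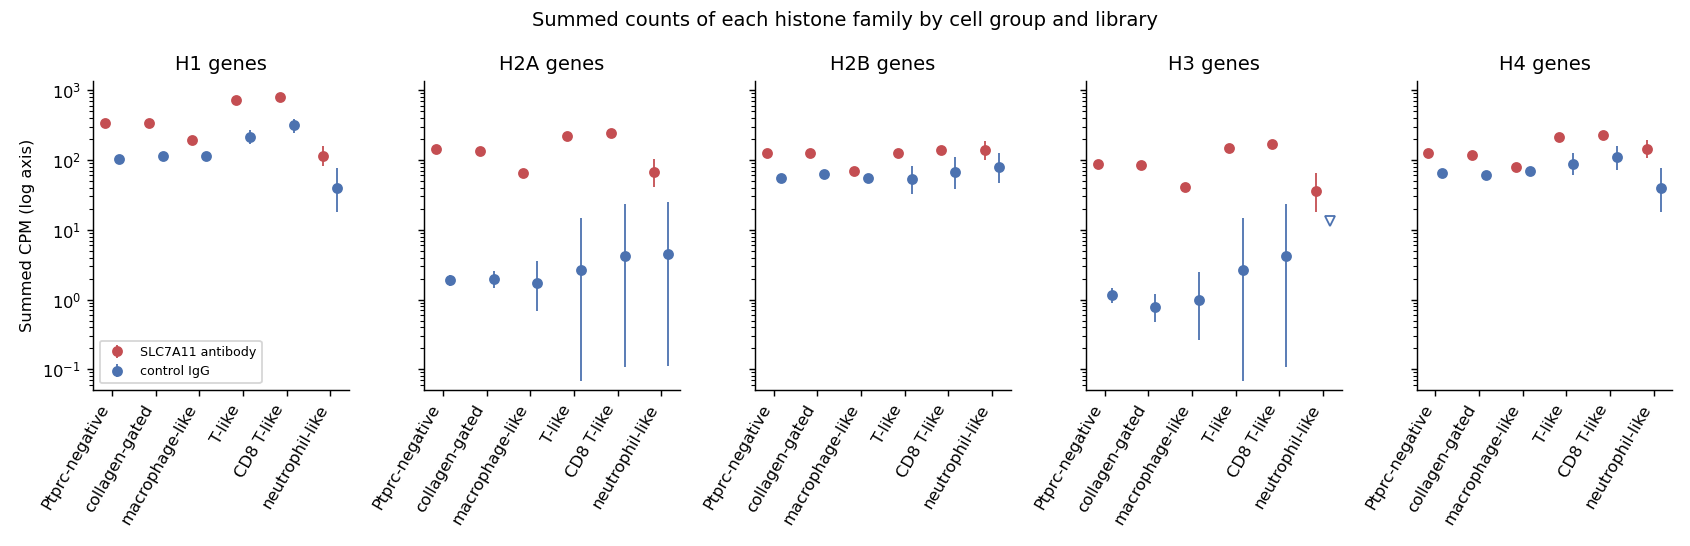
Summed CPM (log axis) of each histone family in 6 groups of cells, SLC7A11 antibody left of control IgG, with 95% Poisson intervals that cover counting error only. The open triangle marks the limit that 0 UMIs allow (3 counts). Where they had UMIs, H2A and H3 are at most 4.42 CPM in the control library, a value from 1 UMI (upper limit 24.6). H3 in control neutrophil-like cells had 0 UMIs, with an upper limit of 16.3. In the antibody library H2A and H3 are 36.5 or more, while H2B and H4 stay within 3.66-fold in each group.

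The share of histone UMIs from H2A and H3 varied less between groups of cells than between libraries. It was 27.9% in Ptprc-negative, 27.6% in collagen-gated, 23.9% in macrophage-like, 25.6% in T-like and 20.4% in neutrophil-like cells of the antibody library. In the control library it was 1.33%, 1.14%, 1.12%, 1.47% and 2.70% in the same groups, the last resting on 1 UMI. The control share lay below the antibody share in each group.

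Other genes showed the same kind of library gap. The 130 genes at least 16-fold higher over all cells were 20 members and 110 others, and 3 genes were at least 16-fold lower. Of the others, those with the most antibody UMIs were Pfn1 (profilin, 2534 against 139 CPM), Rps2 (a ribosomal protein, 1706 against 103), Junb (1370 against 35.3) and Ier2 (1150 against 60.5). Cox5a and Tomm20, parts of the respiratory chain and of the mitochondrial import pore, had 581 against 12.2 and 522 against 28.7 CPM. Pfn1, Rps2, Cox5a and Tomm20 are genes that cells of most types use. Further down the same order came immune genes. Examples are H2-Ab1 (410 against 25.6 CPM), Cxcl9 (160 against 4.37) and Igkc (73.0 against 2.11). Cell makeup differed as well (Ptprc in 28.0% against 9.53% of cells), and its part in these gaps was not tested. The 20 members all had 1 exon in their longest annotated transcript, near the share of all members (51 of 55, 92.7%). So had 8 of the 75 others with a coding transcript and 2.81% of the 14856 tested genes that have one. Whether the histone gap and that of Pfn1, Rps2 or Cox5a have 1 source was not tested. Whether both tables were counted with the same annotation and settings is not given in the sources used here, so in the H2A and H3 ratios a difference in counting and one in RNA cannot be told apart.

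Coding base composition differed between the families in the same order as their median log2 ratios, for the core histones. Median coding GC was 69.0% in H2A, 66.9% in H3, 65.1% in H4, 62.7% in H2B and 61.5% in H1. Across 55 members coding GC and log2 ratio had a Pearson r of 0.66 and a Spearman rho of 0.71, given as a description since members share families and sequence. Within families there was no common sign: Spearman rho was -0.26 over 13 H2A genes, -0.42 over 11 H3 genes, 0.46 over 15 H2B genes and 0.25 over 11 H4 genes. Over 14801 other genes with a coding transcript, transcript GC and log2 ratio had a Spearman rho of 0.05.

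The replication-independent variants, which cells make mostly from polyadenylated mRNAs, were also split. Of 11, 7 were at least 2-fold higher over all cells and none lower, beside 13.4% and 4.36% of all genes, and their sum had a log2 ratio of -0.14. H2ax, which marks DNA breaks when phosphorylated and has both a stem-loop and a polyadenylated mRNA form, had 26775 UMIs in the antibody library and 614 in the control library (5.25). H2aj had 2254 against 30 (6.01) and H2az2 had 20173 against 4111 (2.10). Cenpa, the centromeric H3, had 22024 against 9111 (1.07), and H1f0, the linker histone of resting cells, 10871 against 4412 (1.10). H3f3a, H3f3b and H2az1, which hold most variant UMIs, were at -0.35, -0.20 and -0.37. Among the H2A variants, H2ax and H2aj thus stood far apart from H2az1.

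Most genes for the transcription and processing of histone mRNA differed less than 2-fold. Of 19, 1 was at least 2-fold higher over all cells and none lower, beside 13.4% and 4.36% of all genes. Their median was -0.16 and their summed level 713 against 723 CPM. The lowest were Cpsf3 (-0.63) and Pou2f1 (-0.60), and Eri1 was at 0.57. Slbp, which binds the stem-loop, had 15743 UMIs in the antibody library and 15296 in the control library (log2 ratio -0.16, interval -0.19 to -0.12). Npat, the activator of the histone clusters, was at -0.32, and Lsm10 and Lsm11 of the U7 particle that cuts histone mRNA were at -0.40 and -0.35. The gene that passed was Lsm1 (12423 against 3894, 1.48), whose product takes part in mRNA decay. Cycle genes were slightly lower. Of 23 S phase genes 1 was at least 2-fold higher and none lower (median -0.44), and of 25 G2/M genes likewise 1 and none (median -0.32). The shares of all genes beside them are the same 13.4% and 4.36%.

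Histone counts differed between cell cycle classes within each library. Cells were thinned to 2000 UMIs and called S-high (at least 3 S phase UMIs and more than G2/M UMIs), G2/M-high (at least 3 G2/M UMIs and no fewer than S phase UMIs) or low (at most 1 UMI over both lists). In Ptprc-negative cells the members had 532 CPM in S-high and 1313 in G2/M-high antibody cells, against 397 in low antibody cells. In the control library S-high cells had 133 and G2/M-high cells 395, against 121 in low cells. G2/M-high cells thus had 3.31 times the level of low cells in the antibody library and 3.28 times in the control library. S-high cells had 1.34 times (log2 0.42, interval 0.27 to 0.58) and 1.11 times (0.15, -0.08 to 0.37). The antibody value ran between 0.19 and 1.01 under other thinning, doublet and S-high settings, and the control value between -0.01 and 0.70. The highest histone UMI level was in G2/M-high cells in both libraries. The classes compare raw UMIs of lists of unequal level. Ptprc-negative cells had a mean of 4.79 G2/M and 2.16 S phase UMIs in the antibody library, and 5.45 and 2.85 in the control library. Cells in S phase can therefore be called G2/M-high, and the order of the classes does not give the timing of histone mRNA.

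Among the linker histones, H1f5 had the largest ratio of S-high over low cells. In antibody Ptprc-negative cells it had 81.5 CPM in S-high and 223 in G2/M-high cells, against 5.99 in low cells. In control cells it had 48.5 and 190, against 5.66. H2A and H3 genes had 154 CPM in S-high and 393 in G2/M-high antibody cells, against 42.8 in low cells. In control cells they had 3, 12 and 12 UMIs in all in those classes, too few to follow. The library ratio of H2A and H3 was higher in G2/M-high cells (981 against 12 UMIs, log2 ratio 6.79, interval 6.04 to 7.81) than in low cells (100 against 12, 3.45, 2.64 to 4.50). For H2B and H4 it was 1.02 (0.87 to 1.17) in G2/M-high and 1.19 (0.98 to 1.41) in low cells.

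**Figure D4:**
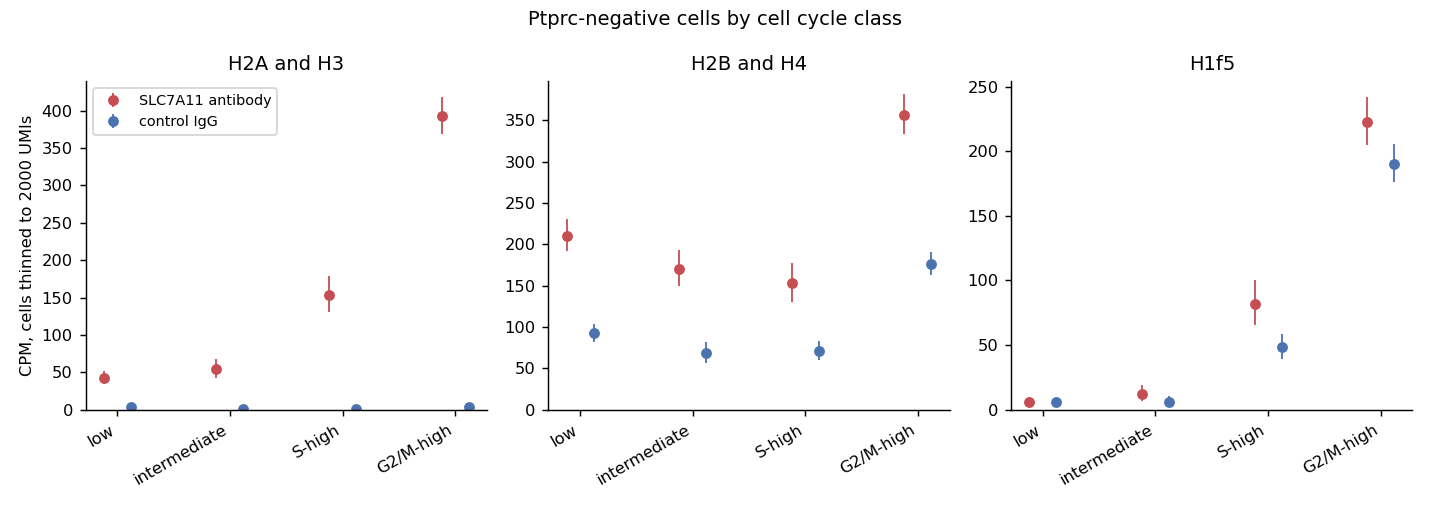
Levels in CPM for H2A and H3, H2B and H4, and H1f5 in Ptprc-negative cells thinned to 2000 UMIs, by cell cycle class, SLC7A11 antibody left of control IgG, with 95% Poisson intervals. Antibody cells climb to 393 for H2A and H3 in G2/M-high cells while control cells stay at or below 3.78, and H1f5 climbs in both libraries, to 223 and 190.

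H2B and H4 together were lower in S-high than in low Ptprc-negative cells, with 153 against 211 CPM in the antibody library and 71.4 against 92.2 in the control library. This came from H2bc4: without it, a step added after its values were seen, S-high cells had 119 against 77.5 in low antibody cells and 63.0 against 48.5 in low control cells. By gene, in unthinned counts of the same antibody cells, 34 members had at least 20 UMIs in S-high and low cells together. In 24 the interval lay above 0 and in 3 below, beside 23.7% and 13.7% of all 13041 genes with as many UMIs. H3c3 had 427 UMIs in S-high and 35 in low cells (log2 ratio 4.29, interval 3.81 to 4.85), H1f5 901 and 136 (3.42) and H2ac20 364 and 150 (1.97). The 3 lower in S-high cells were H2bc4 with 260 and 1986 UMIs (-2.23, -2.43 to -2.05), H1f2 with 502 and 1417 (-0.80) and H2ac6 with 36 and 94 (-0.67). H2bc4 and H2ac6 form 1 of the divergent pairs, the pair with the smallest library gap. In the control library 17 members had as many UMIs, with 5 intervals above 0 and 4 below, beside 20.5% and 14.8% of all genes.

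**Figure D5:**
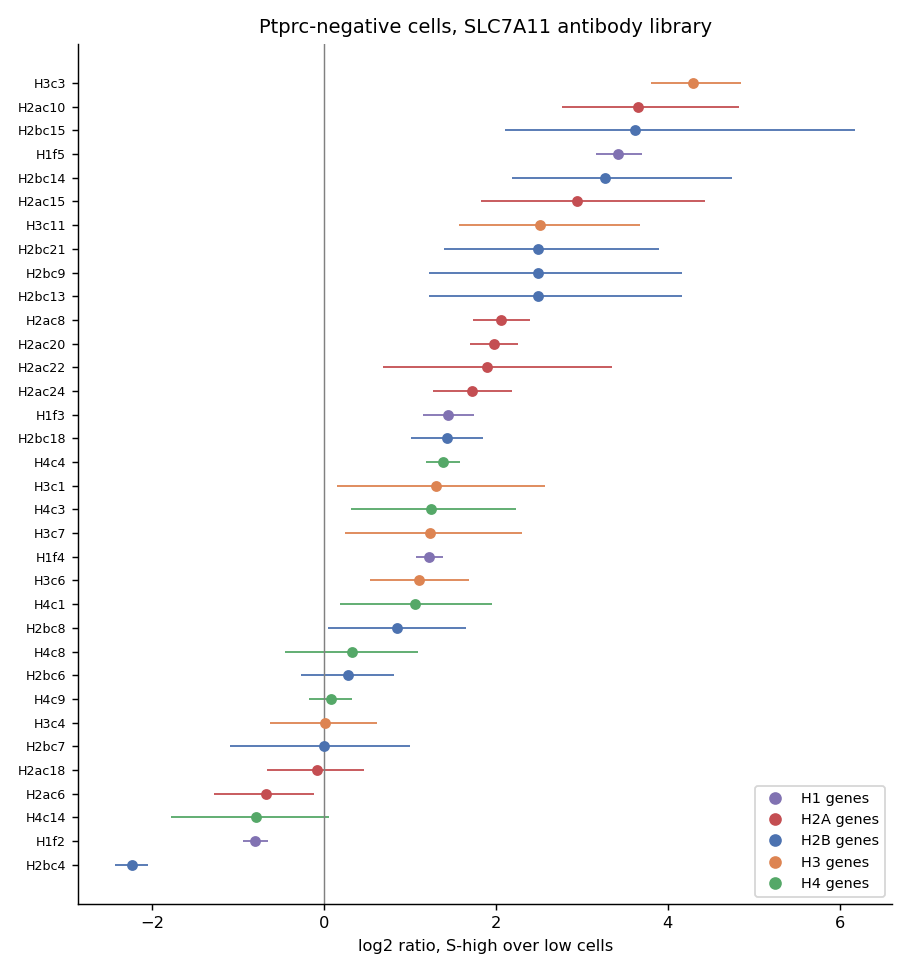
Log2 ratio of UMIs, S-high over low Ptprc-negative cells of the SLC7A11 antibody library, for 34 members with at least 20 UMIs, with 95% counting intervals and colours by family. H3c3 is highest at 4.29, and H2bc4 lowest at -2.23.

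CD8 T-like cells of the antibody library had 1328 CPM in S-high and 3747 in G2/M-high cells, against 323 in low cells, which is 4.11 and 11.6 times as much. All T-like cells, of which these are part, had 1264 and 3697, against 319.7 in low cells. H2B and H4 genes were higher there in S-high cells (261 against 85.9), where H2bc4 had few UMIs (21 in all antibody CD8 T-like cells). In the control library 18 G2/M-high cells had 51 histone UMIs, 11 S-high cells 4 and 7 low cells 1, so S-high and low control cells could not be compared at this depth. Cell by cell, Spearman rho of histone UMIs with G2/M UMIs was 0.52 over 385 antibody CD8 T-like cells and 0.35 over 3661 antibody Ptprc-negative cells, with 0.82 over 38 control CD8 T-like cells and 0.28 over 5271 control Ptprc-negative cells. With S phase UMIs it was 0.40, 0.19, 0.49 and 0.16 in the same order. All points of one library share its preparation, and 2000 UMIs per cell leave these counts sparse.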

How the data were processed

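The authors' deposited tables hold UMI counts per gene and cell barcode for 2 tumour libraries. Per the submitters' processing notes they were made with Cell Ranger 7.2.0 on mm10, and Seurat is named. The annotation and counting settings of each table are not given in the sources used here. Here, barcodes were kept from 200 genes and 500 UMIs upward if mitochondrial UMIs stayed below 20%, and the top 0.8% per 1000 cells by Scrublet score (scanpy 1.11.5) were removed as doublets. Cells were gated with at least 3 UMIs from at least 2 markers and 3 times every other class. Genes absent from 1 table were taken as 0, since neither table lists a gene without counts. Whether an absent gene could be counted there is not given, so a lower bound for a gene at 0 holds only if it could. Summed counts were compared as log2 ratios with 0.5 added, with exact 95% intervals (binomial for ratios, Clopper-Pearson for shares, Poisson for levels) that cover counting error only. Calls need 20 UMIs over both libraries. Groups with at least 50 cells per library were compared. With 1 library per treatment no test was made. Cell cycle classes came from S phase and G2/M lists after thinning to 2000 UMIs. Counts are not scaled to gene length, so they compare a gene between libraries or cells, not transcript levels of different genes.

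The members and lists were chosen with earlier results of these data known. Values are printed for the 3 members per family with the most UMIs, other members by counts and ranges or as extremes chosen after their values were seen. The keratin gate held under 50 cells, so the Ptprc-negative group and the name collagen-gated were added after seeing the data. The ratio, interval and thinning steps were tested on simulated counts with counting error only, which hold no differences between libraries and no shared copies.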

Additional observations from a re-analysis of the deposited data

Results flagged for a closer look

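H1f5 was lower in the antibody library in macrophage-like cells (log2 ratio -0.63) and higher in the other groups where its interval left 0, up to 0.84 in T-like cells. It was listed because its counting intervals lie on opposite sides of 0 in different groups of cells. The difference between the groups was not tested.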

How the results depend on the processing

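Of 110 values under alternatives, 84 stayed within their bounds, 26 moved and 0 reversed. The bounds were a set tolerance for counts of members and the interval of the main value for the rest. Counts of members could not be labelled reversed, nor could ratios whose main interval held 0. The 0 therefore says nothing of those values. With cells thinned to 1000 UMIs, the members at least 2-fold higher numbered 24 over all cells and 15 in Ptprc-negative cells (41 in each as reported). They numbered 8 in collagen-gated (29), 5 in macrophage-like (14) and 6 in CD8 T-like cells (15). Thinning lowers the counts set against the minimum of 20 UMIs, and the part of this in the drop was not tested. A count minimum of 100 left 16 in collagen-gated, 7 in macrophage-like, 7 in CD8 T-like and 0 in neutrophil-like cells (2 as reported), and no minimum gave 32 in macrophage-like, 24 in CD8 T-like and 25 in neutrophil-like cells. Without doublet removal there were 22 in macrophage-like and 8 in neutrophil-like cells, and the cause was not tested. In Ptprc-negative cells the summed log2 ratio of 1.85 was 2.00 with median-of-ratios scaling, 1.82 with totals without mitochondrial, ribosomal and haemoglobin genes and 1.76 after thinning to 1000. The H2A and H3 ratio of 6.25 was 5.49 after that thinning, and the H2B and H4 ratio of 1.06 was 1.20 with median-of-ratios scaling. The S-high over low log2 ratio of 0.42 in the antibody library was 0.66 without doublet removal, 1.01 after thinning to 1000, 0.19 and 0.91 with S-high from 2 and 5 UMIs and 0.60 unthinned. In the control library 0.15 became 0.70 after thinning to 1000 and 0.51 with S-high from 5 UMIs. It was -0.01 with S-high from 2 UMIs, so its sign depended on that cut. Unthinned counts of the same control cells gave 0.36 (interval 0.27 to 0.45). Alternatives for Ptprc-negative cells, collagen-gated cells and all cells were chosen after seeing the data.

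The keratin gate gave no values, and neutrophil-like cells gave none under the stricter cell filter or after thinning to 1000, with fewer than 50 cells. No paired analysis was possible because each treatment has 1 library. The control library held 307 H2A and H3 UMIs in all, which limits what can be said of single genes there, and copies that share sequence cannot be told apart.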

Other observations

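Some rows named as histones fall outside the rule. H2af-ps2, a pseudogene by its name, had 555 UMIs in the antibody library and 4 in the control library (log2 ratio 6.75, interval 5.55 to 8.80). H4f16 had 457 against 192 UMIs (1.05) and H2aw 1419 against 1280 (-0.05). Among these 3, chosen after their values were seen, only H2af-ps2 was at least 16-fold higher.

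Among other genes with a coding transcript, those with a transcript GC of 60 to 80% had a median log2 ratio of 0.20, and 2.47% of these 647 genes were at least 16-fold higher. In the classes with lower GC the share lay between 0.252% and 0.686%. Of 366 single-exon genes outside the histones 2.19% were at least 16-fold higher, against 0.464% of 14435 genes with more exons. These are descriptions of 2 libraries.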
